A study of Homo sapiens with 6 samples.

Results

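The 8 genes described here code for chemokines that are counted among the factors secreted by senescent cells: CXCL1, CXCL2, CXCL3, CXCL5, CXCL8, CCL2, CCL5 and CCL20. They were chosen by name from the deposited table of read counts, where all 8 of the 8 symbols had 1 row each among 29122 genes. RNA was taken from A549, an epithelial cell line established from a human lung carcinoma, after stable lentiviral delivery of a short hairpin RNA. In the 3 control libraries the hairpin was directed against firefly luciferase, an insect enzyme, and in the 3 BCLAF1-depleted libraries against BCLAF1, which codes for a nuclear factor of transcription and splicing. Sample names write "si" for the hairpin. The labels do not say if the 3 libraries of a group stem from separate cultures, and the p-values therefore reflect the spread among these libraries alone, possibly only technical. By its title the series concerns MED23, a subunit of Mediator, and premature senescence. In such bulk RNA, fewer cells expressing a gene and less of its RNA per cell cannot be told apart.

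Chemokines are small secreted proteins that bind G protein-coupled receptors and direct the migration of leukocytes. The CXC members of the group, CXCL1, CXCL2, CXCL3, CXCL5 and CXCL8 (interleukin-8), act on CXCR2 and attract chiefly neutrophils. CCL2 attracts monocytes through CCR2, CCL5 attracts T cells and monocytes, and CCL20 attracts cells that carry CCR6. In epithelial cells most of these genes have low activity until interleukin-1, tumour necrosis factor or microbial products activate the transcription factor NF-kB. Many of their messenger RNAs are short-lived, as AU-rich elements in the 3' untranslated region recruit decay factors.

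The promoters are shown first because 6 of the members share a sequence feature there. The 5 CXC genes form a cluster on chromosome 4 (GRCh38), ordered as CXCL8 (73740506 to 73743716, plus strand), CXCL1 (73869393 to 73871242, plus), CXCL5 (73995642 to 73998779, minus), CXCL3 (74036589 to 74038807, minus) and CXCL2 (74097035 to 74099293, minus). CCL2 (34255218 to 34257203, plus) and CCL5 (35871491 to 35880793, minus) are on chromosome 17, and CCL20 (227805739 to 227817564, plus) is on chromosome 2. These gene positions are from GENCODE release 29. Promoter windows of RefSeq (GRCh38.p14), from 250 bases before to 50 after the start site, were matched by symbol for 6 members, all except CCL2 and CCL5. For CXCL2, CXCL3, CXCL5, CXCL8 and CCL20 the RefSeq start lies inside the GENCODE span, so bases before it can belong to the GENCODE gene. Distances below count from the RefSeq start. The kappaB-like pattern GGNNTTTCC, searched on both strands, was present in 6 of these 6 windows and in 6.26% of all 35116 windows. Most of the members are known NF-kB targets and the pattern follows the NF-kB element, so this high share came with the choice of genes. It is a description and no test. The 120 bases that precede the start site are printed 5' to 3' on the gene's strand, with matches in capitals, for 3 genes that rose and for CXCL5, which did not pass the test. They cover chr4:73869273-73869392 for CXCL1, chr4:74099196-74099315 for CXCL2, chr4:73998678-73998797 for CXCL5 and chr4:73740449-73740568 for CXCL8.
CXCL1: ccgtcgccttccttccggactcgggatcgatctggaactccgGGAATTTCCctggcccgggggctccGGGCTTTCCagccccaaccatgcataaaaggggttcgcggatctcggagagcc
CXCL2: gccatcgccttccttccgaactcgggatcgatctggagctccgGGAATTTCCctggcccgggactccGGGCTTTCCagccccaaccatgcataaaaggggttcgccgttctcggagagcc
CXCL5: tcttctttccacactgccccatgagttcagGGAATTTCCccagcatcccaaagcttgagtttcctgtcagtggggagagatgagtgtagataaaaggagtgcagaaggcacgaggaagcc
CXCL8: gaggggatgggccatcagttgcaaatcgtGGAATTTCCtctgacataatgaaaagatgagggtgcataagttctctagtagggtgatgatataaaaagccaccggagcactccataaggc

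CXCL1, CXCL2 and CXCL3 each held 2 matches, GGAATTTCC beginning 77 or 78 bases and GGGCTTTCC beginning 53 bases before the start site. CXCL5 and CXCL8 held 1 match each, again GGAATTTCC, beginning 90 and 91 bases before the start. CCL20 held 1 match on the opposite strand, GGAAAACCC as read on the gene's strand, beginning 79 bases before the start. Over the whole windows CXCL1 and CXCL3 were 82.5% identical in a global alignment, CXCL1 and CXCL2 71.9%, and CXCL1 and CXCL5 55.3%. The matches of CXCL1, CXCL2 and CXCL3, close paralogs, are therefore not separate cases. The AP-1 pattern TGANTCA occurred in 1 member, CXCL8, and in 7.71% of all windows. The TATA-box pattern, TATAAA, occurred in 2 members, CXCL8 and CCL20, and in 11.5% of all windows. Only these exact letters were searched, so variants such as cataaa in CXCL1 and CXCL2 and gataaa in CXCL5, printed above, were not counted. The kappaB-like pattern follows the known NF-kB element, and a match is a description of letters, not of binding.

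**Figure D1:**
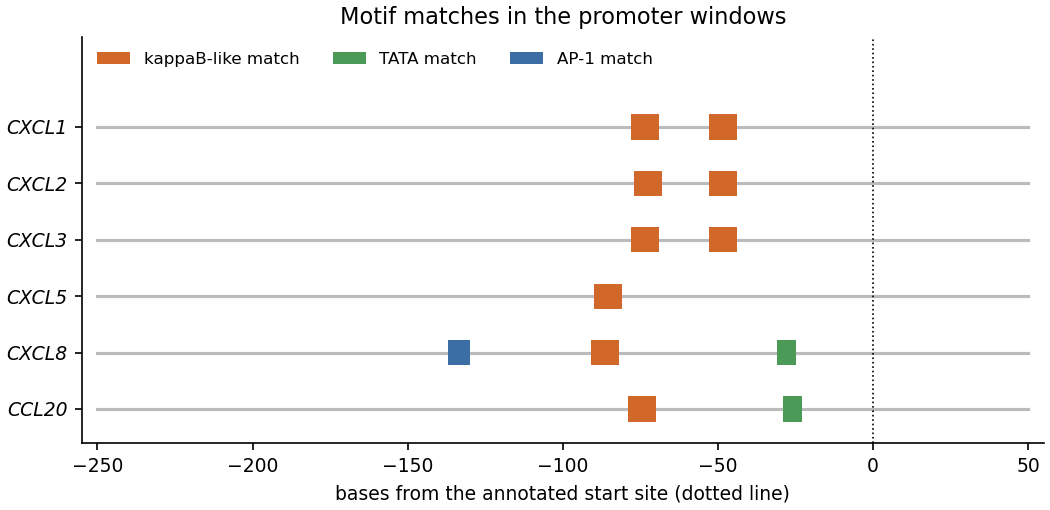
Position of matches to the kappaB-like, AP-1 and TATA-box patterns in the promoter windows of 6 chemokine genes, in bases from the start site annotated by RefSeq. All 6 windows hold a kappaB-like match, and CXCL1, CXCL2 and CXCL3 hold a pair of them.

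Depletion was checked in the targeted gene first. Levels are in CPM (counts scaled to a common library size by TMM) and are listed in the order of replicates 1, 2 and 3. BCLAF1 was at 211.1, 199.0 and 203.2 CPM in the controls against 39.0, 35.7 and 53.1 CPM after depletion, a 4.80-fold lower level (edgeR adjusted p = 2.31e-05). Across all tested genes, log2 CPM of BCLAF1-depleted replicate 1 correlated with the controls at 0.9759 to 0.9765, and that of replicates 2 and 3 at 0.9579 to 0.96. The libraries held 33409158 to 43928927 counts. The floor set by counting error, 3 counts, corresponds to 0.0683 to 0.0898 CPM by library totals alone. With TMM scaling it is 0.0624 to 0.0925 CPM. Epithelial markers summed to 32600 to 34200 CPM in controls and 34500 to 42000 CPM after depletion, and 1 of 8, KRT19, passed the test (edgeR adjusted p = 0.0495) at 0.208 to 0.832 CPM, a call lost under most other settings, among them the DESeq2 Wald test, library totals alone, the length and GC correction, FPKM and leaving out any 1 control. With library totals alone, the length and GC correction or FPKM, 0 epithelial markers were higher and 1 was lower. Leukocyte markers summed to 0.992 to 2.18 CPM in controls and 1.43 to 2.43 CPM after depletion. Of these 10, CD3D, CD3E and MS4A1 had no row in the table, and 0 of the 2 tested passed by edgeR (1 at an unadjusted p under 0.05) or DESeq2 (0). Fibroblast and endothelial markers summed to 6.20 to 8.91 and 7.89 to 8.44 CPM, with 1 of 5 tested higher (CDH5, at up to 2.11 CPM) and 1 lower (PECAM1, at up to 1.31 CPM). The PECAM1 call was lost whichever of the 6 libraries was left out. The part of these markers in the results was not tested.

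Of the chemokine genes, 7 rose after BCLAF1 depletion and 1, CXCL5, did not pass the test. CCL5 rose 18.9-fold, CCL20 7.97-fold and CXCL2 4.45-fold, and CXCL1, CXCL3, CXCL8 and CCL2 rose 2.63-fold to 3.45-fold. For these 7 genes every BCLAF1-depleted library was above every control. Over all 15907 tested genes, 35.8% passed the same test (edgeR quasi-likelihood, Benjamini-Hochberg adjusted p under 0.05), 17.8% were higher and 6.05% were both higher and at least 2-fold changed, while 25.3% had every BCLAF1-depleted library above every control (51.9% had no overlap in either direction). CCL5 and CCL20 had under 10 counts in some or all controls and passed the filter on low counts through their BCLAF1-depleted libraries, so their calls are not independent of that filter. Of the 6 members with at least 10 counts in every library, 5 rose, where 18.2% of all such genes did. No member was lower by edgeR (0 of 8, and 0 at an unadjusted p under 0.05), nor by the DESeq2 Wald test (0) or limma on FPKM (0).

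**Figure D2:**
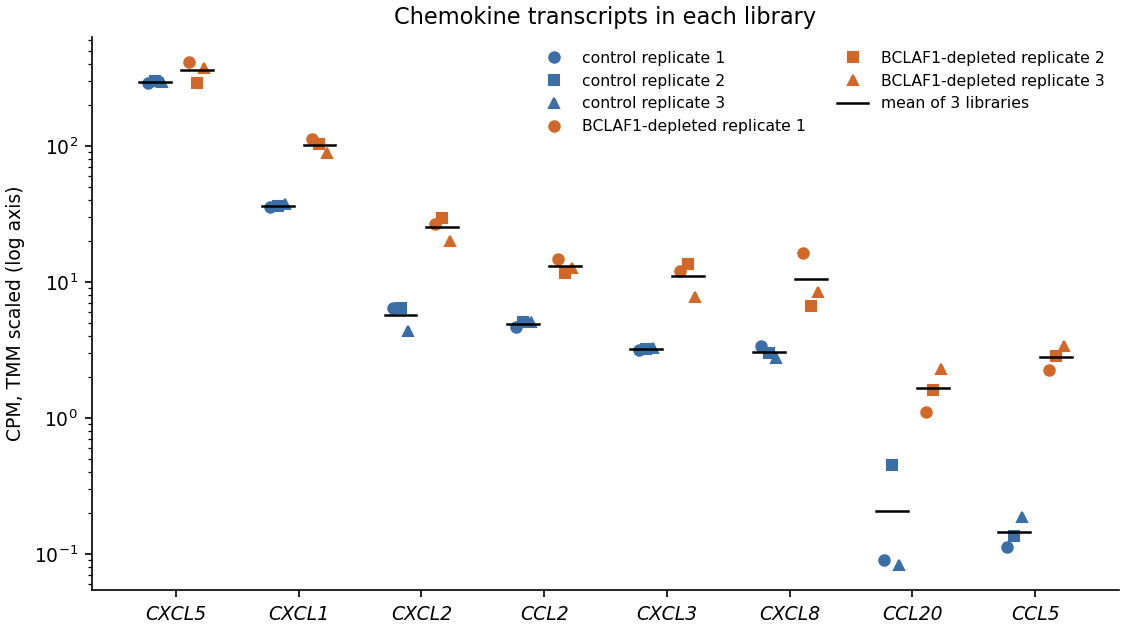
CPM of the 8 chemokine genes in each of the 6 libraries, on a log axis, with the mean of each group as a bar. The BCLAF1-depleted libraries lie above all controls for every gene except CXCL5, where BCLAF1-depleted replicate 2 (291.9 CPM) lies below the lowest control (292.7 CPM).

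CXCL1, CXCL2 and CXCL3 are close paralogs whose products all act on CXCR2. CXCL1 (ENSG00000163739.4) had 35.4, 36.3 and 37.3 CPM in the controls and 111.8, 103.6 and 89.2 CPM after depletion. The controls lay close together and every depleted library was far above them (log2 fold change 1.48 ± 0.12 SE, edgeR adjusted p = 5.17e-05). CXCL2 (ENSG00000081041.8) had 6.40, 6.40 and 4.39 CPM in controls and 26.9, 29.3 and 20.2 CPM after depletion (2.15 ± 0.19, edgeR adjusted p = 7.62e-05). CXCL3 (ENSG00000163734.4) had 3.19, 3.20 and 3.28 CPM in controls and 12.0, 13.5 and 7.83 CPM after depletion (1.79 ± 0.20, edgeR adjusted p = 0.000309). For all 3 genes BCLAF1-depleted replicate 3 had the smallest rise, with log2 ratios to the control mean of 1.296, 1.82 and 1.28. Stretches of 50 bases that also occur in another gene's transcript made up 5.73% of the CXCL1 transcript, 9.24% of CXCL2 and 5.26% of CXCL3, shared among these 3 genes. The counting of reads from such stretches is not documented in the labels, so the split between the 3 genes is uncertain to that extent.

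CXCL8 codes for interleukin-8, the best known neutrophil attractant of epithelial cells. CXCL8 (ENSG00000169429.9) had 3.39, 2.999 and 2.79 CPM in controls and 16.3, 6.63 and 8.51 CPM after depletion. All depleted libraries were above the controls, and replicate 1 stood far above the other two. The log2 fold change was 1.78 ± 0.30 (edgeR adjusted p = 0.00233), and without BCLAF1-depleted replicate 1 it was 1.28 (adjusted p = 0.000445).

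CXCL5, which codes for another CXCR2 ligand, was at the highest level of the group and did not pass the test. CXCL5 (ENSG00000163735.6) had 292.7, 300.5 and 293.9 CPM in controls and 415.1, 291.9 and 373.7 CPM after depletion. The controls agreed closely, whereas BCLAF1-depleted replicates 1 and 3 were above them and replicate 2 was just below. The log2 fold change of 0.28 ± 0.15 had a 95% interval of -0.05 to 0.62 and an edgeR adjusted p of 0.167. It passed without BCLAF1-depleted replicate 2 (0.42, adjusted p = 0.0389), and its sign turned on the deposited FPKM values (-0.02, adjusted p = 0.927). On FPKM the median of all genes was below 0 too, at -0.253 to -0.0142 by setting. The interval of CXCL5 lies below those of CXCL1 (1.21 to 1.76) and CXCL2 (1.72 to 2.58), although the difference between genes was not itself tested. CXCL5 lies inside the cluster, between CXCL1 and CXCL3 in chromosome order.

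Among the CC chemokines, the monocyte attractant gene CCL2 (ENSG00000108691.8) had 4.64, 5.12 and 5.07 CPM in controls and 14.8, 11.7 and 12.6 CPM after depletion. Its groups lay far apart, with log2 ratios to the control mean of 1.58, 1.24 and 1.35 after depletion (log2 fold change 1.40 ± 0.14, edgeR adjusted p = 0.000167). CCL5 (ENSG00000271503.4), also called RANTES, had 0.113, 0.135 and 0.187 CPM in controls, from 5, 6 and 9 counts. It had 2.25, 2.84 and 3.36 CPM after depletion, from 79, 97 and 109 counts. Controls were close to the floor of 3 counts, and the depleted libraries were all far above it (4.24 ± 0.31, edgeR adjusted p = 2.34e-05). In the CCL5 transcript 16.0% of 50-base stretches also occur in transcripts of other genes.

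CCL20 (ENSG00000115009.10), the only known chemokine ligand of CCR6, had 4, 20 and 4 counts in controls (0.0905, 0.451 and 0.0832 CPM). After depletion it had 39, 55 and 74 counts (1.11, 1.61 and 2.28 CPM). Control replicate 2 stood above the other controls, and the depleted libraries were all higher than it. The log2 fold change was 2.995 ± 0.541 (edgeR adjusted p = 0.00329), but 4.21 without control replicate 2 (adjusted p = 0.000796), so its size depends on that library. The order of CCL5 and CCL20 depends on it too, as CCL5 was at 4.18 without control replicate 2, and their 95% intervals overlap (3.55 to 4.93 and 1.794 to 4.196).

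The members differed in which BCLAF1-depleted library was highest. In CPM, CXCL1, CXCL5, CXCL8 and CCL2 were highest in replicate 1, CXCL2 and CXCL3 in replicate 2, and CCL5 and CCL20 in replicate 3. On the deposited FPKM CXCL2 (19.97, 18.79 and 11.45) and CXCL3 (10.12, 9.84 and 5.03) were highest in replicate 1. Their place therefore depends on the scaling. CCL5 and CCL20 were lowest in replicate 1, where their log2 ratios to the control mean were 3.96 and 2.42 against 4.53 and 3.45 in replicate 3. Over the 6 libraries the log2 CPM of CXCL1 correlated with that of CCL2 at r = 0.99 and of CXCL3 at r = 0.985, and that of CXCL5 with CXCL3 at r = 0.558. These values describe libraries that fall into the same 2 groups.

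Levels can be compared between genes only per length, for which the deposited FPKM (fragments scaled by gene length and sequencing depth) were used. In controls CXCL5 was the most abundant, at 112.5 ± 1.46 FPKM (mean ± SD, n = 3), above 98.5% of listed genes. CXCL1 followed at 32.0 ± 1.03 FPKM, then CXCL2 at 4.54 ± 0.901, CCL2 at 4.25 ± 0.234, CXCL3 at 2.90 ± 0.0635 and CXCL8 at 1.47 ± 0.143 FPKM. CXCL2 and CCL2 were within their spread of each other, and so were CCL20 (0.240 ± 0.242) and CCL5 (0.1 ± 0.0265), the 2 lowest. After depletion CXCL5 had 113.1 ± 30.8 and CXCL1 74.04 ± 18.02 FPKM. Their spreads overlapped, but CXCL5 was above CXCL1 within each of these libraries. CXCL2 then stood at 16.7 ± 4.62, CCL2 at 9.26 ± 2.29, CXCL3 at 8.33 ± 2.86 and CXCL8 at 4.29 ± 2.67 FPKM. CCL2, CXCL3 and CXCL8 followed with spreads that overlapped from each to the next, as did those of CCL5 (1.53 ± 0.101) and CCL20 (1.52 ± 0.340). Within each BCLAF1-depleted library CXCL3 was above CXCL8, whereas CCL2 was below CXCL3 in replicate 2.

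CXCL5 held a smaller share of the chemokine messages in every BCLAF1-depleted library than in any control. CXCL5 made up 71.3, 71.1 and 71.2% of the summed FPKM of the 8 genes in controls, and 50.7, 43.6 and 53.9% after depletion. CXCL1 went from 19.9, 19.9 and 20.9% to 31.6, 35.8 and 29.8%. The CC members CCL5 and CCL20, each at most 0.325% in controls, reached 0.407 to 0.992% after depletion. The 7 genes other than CXCL5 summed to 44.7, 46.2 and 45.5 FPKM in controls and to 144, 116 and 86.8 FPKM after depletion.

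**Figure D3:**
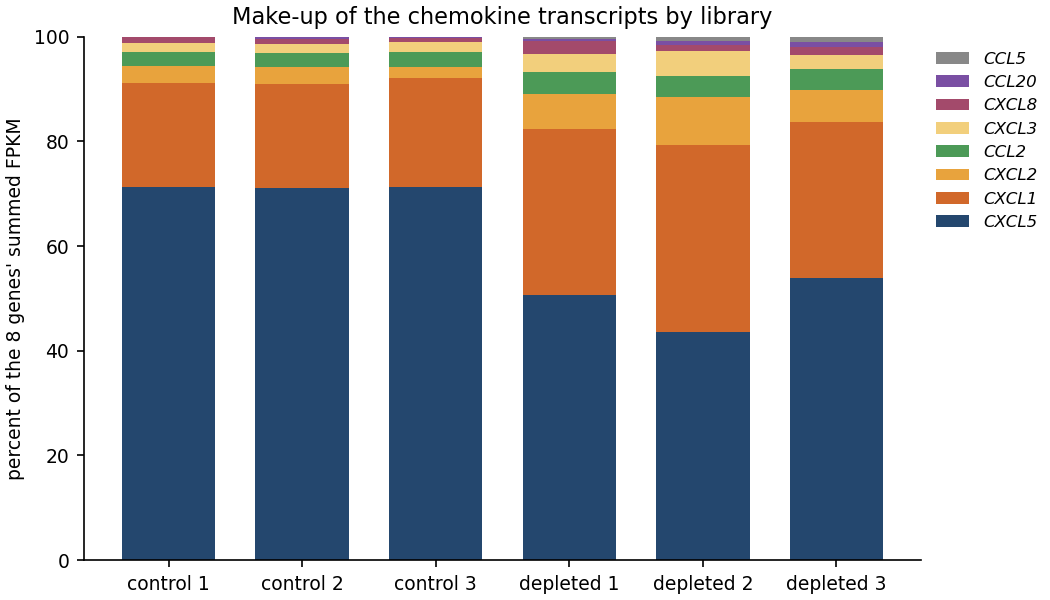
Share of each gene in the summed FPKM of the 8 chemokine genes, in percent, for each library. CXCL5 holds 71.1 to 71.3% in the 3 controls and 43.6 to 53.9% in the 3 BCLAF1-depleted libraries.

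Shorter genes had higher fold changes in this series, and the chemokine transcripts are short. In all, 7 of the members fall in the quintile of tested genes with the shortest exon length (59 to 2289 bases), where the median log2 fold change was 0.346 and 28.6% of genes were higher. In the quintile with the longest exons the median was -0.188 and 10.3% were higher. CXCL5, at 2538 bases, falls in the quintile after the shortest, with a median of 0.131. With a correction for length and GC content, the log2 fold changes of the 7 genes were 1.23 for CXCL1, 1.91 for CXCL2, 1.56 for CXCL3, 1.64 for CXCL8, 1.27 for CCL2, 3.91 for CCL5 and 2.81 for CCL20, each still past the threshold. CXCL5 was at 0.24 (adjusted p = 0.205). With library totals as the only scaling, all genes shifted down (median -0.21, with 1283 higher and 3662 lower, against 2827 and 2870 with TMM). The 7 chemokine genes stayed past the threshold there too, with log2 fold changes of 1.18 to 3.99.

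**Figure D4:**
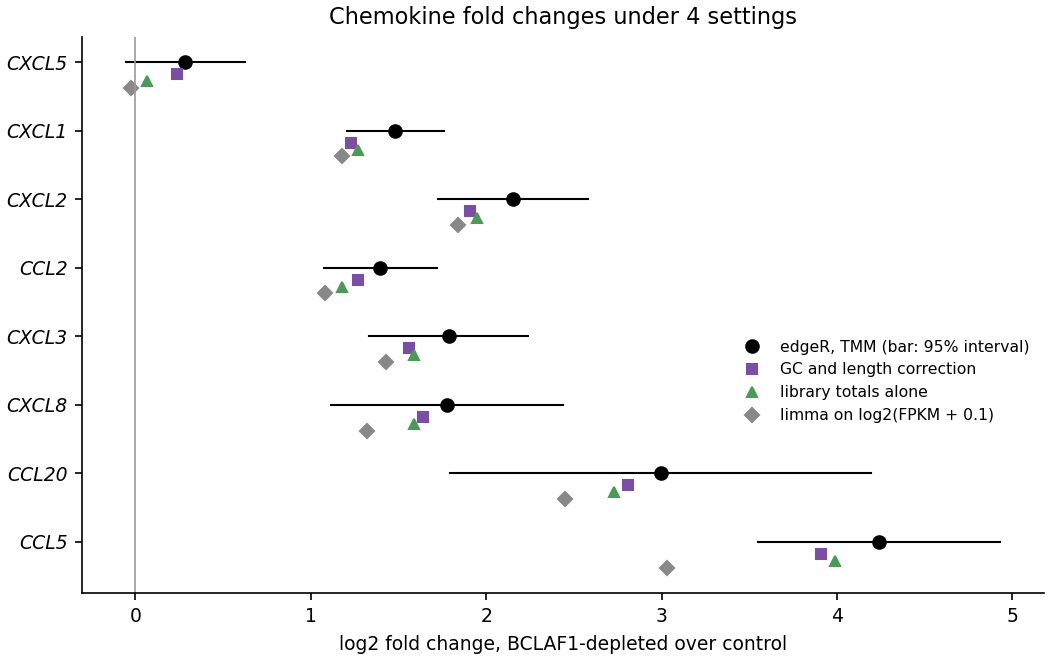
Log2 fold change of each chemokine gene, BCLAF1-depleted over control, by edgeR with TMM scaling (bar: 95% interval) and under 3 other settings. Under each of the 4 settings 7 genes lie at 1.08 or higher, and CXCL5 lies between -0.0252 and 0.285.

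The AU-rich pentamer ATTTA, the core of the elements that shorten the life of chemokine messages, was counted in the 3' untranslated region of the longest coding transcript of each gene. CXCL2 had 10 copies (13.9 per kilobase, more than in 99.4% of 19071 protein-coding genes). CXCL3 had 7, CXCL8 9, CXCL1 5 and CXCL5 11 copies, at 5.51 to 10.4 per kilobase, where the median gene had 1.48. CCL20 had 3 copies (6.24 per kilobase), CCL2 had 1 (2.66 per kilobase) and CCL5 had 0. Of 11 genes for regulators of the decay of AU-rich messages, 0 passed in either direction by edgeR (1 higher and 1 lower at an unadjusted p under 0.05), and the DESeq2 Wald test called 1 higher. Their most abundant members were HNRNPD (AUF1), with a log2 fold change of 0.46 ± 0.24 (edgeR adjusted p = 0.149), and KHSRP, with -0.02 ± 0.12 (0.899). HNRNPD passed with the length and GC correction (0.71, adjusted p = 0.0476) and without BCLAF1-depleted replicate 1 (0.65, adjusted p = 0.0143). The sign of KHSRP turned under 4 settings, upper-quartile scaling among them.

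Most other chemokine ligands were too low to test in these cells. Of 40 further ligand genes, 23 had a row in the table, 3 were tested and 0 passed by edgeR (0 at an unadjusted p under 0.05, and 0 by DESeq2). CXCL16, a membrane-anchored chemokine, had 11.4, 11.7 and 12.5 CPM in controls and 13.1, 11.9 and 12.8 CPM after depletion (0.09 ± 0.12, edgeR adjusted p = 0.599), and the direction reversed under library totals alone, with the length and GC correction and on FPKM. CCL28 stayed at 0.352 to 0.555 CPM in all libraries (0.21 ± 0.34, edgeR adjusted p = 0.653), with the sign also turned by library totals alone and on FPKM. The third, PPBP, had 10 to 21 counts. It is named after its values were seen, and its log2 fold change was 0.60 ± 0.40 (edgeR adjusted p = 0.257). CXCL10 and CXCL11, interferon-induced chemokines, had under 3 counts in every library and are likewise named after their values were seen.

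The receptors for these ligands were hardly detected. Of 23 receptor genes 17 had a row, 2 were tested and 1, the lymphocyte homing receptor gene CCR7, was lower. CCR7 had 20, 24 and 32 counts in controls and 7, 12 and 3 after depletion (-1.35 ± 0.45, edgeR adjusted p = 0.0395). It passed the filter on low counts through its control libraries, so its call is not independent of that filter. The call was lost without each control library in turn (adjusted p = 0.0731, 0.0967 and 0.133) and without BCLAF1-depleted replicates 1 (0.0713) and 3 (0.0958). CXCR2, the shared receptor of the CXC members, had 0 to 5 counts in each library and is named after its values were seen.

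Of the genes that carry interleukin-1 and tumour necrosis factor signals to NF-kB, 18 of 21 were tested, 1 rose and 7 fell (median log2 fold change -0.22). Of all tested genes 17.8% rose and 18% fell, with a median of 0.02. IL1R1, the signalling receptor of interleukin-1, had 29.7, 27.1 and 29.7 CPM in controls and 11.2, 10.6 and 9.92 CPM after depletion (-1.45 ± 0.12, edgeR adjusted p = 5.09e-05). IRAK2, a kinase of the same pathway, had 2.24, 1.98 and 2.45 CPM in controls and 6.44, 5.40 and 5.36 CPM after depletion (1.36 ± 0.17, edgeR adjusted p = 0.000504). CHUK, the IKK-alpha kinase gene, had a log2 fold change of -0.93 ± 0.25 (edgeR adjusted p = 0.0175), and RIPK1, a kinase at the tumour necrosis factor receptor, of -0.86 ± 0.15 (0.00305). The CHUK call was lost without control replicate 3 (adjusted p = 0.057) and without BCLAF1-depleted replicates 2 (0.075) and 3 (0.0571). With the length and GC correction 2 genes of the list rose and 4 fell, where 2875 and 2539 of all 15907 tested genes did. There were also 2 higher genes with no filter, where all 21 were tested, and without any 1 control or BCLAF1-depleted replicate 2, where 19 were tested. The interleukin-1 gene IL1A, named after its values were seen, did not pass the filter on low counts, with 2, 7 and 3 counts in controls and 25, 8 and 20 after depletion. The other interleukin-1 gene, IL1B, did not pass it either and is likewise named after its values were seen. IL1B had 3, 5 and 5 counts in controls and 14, 7 and 3 after depletion, with groups that overlapped. TNF had under 3 counts in every library.

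Transcription factors that act on chemokine promoters and their inhibitors moved mostly upward. Of 19 tested genes 11 rose and 1 fell, where 17.8 and 18% of all genes did, and the median log2 fold change was 0.51 against 0.02 for all genes. RELB, an NF-kB subunit of the noncanonical pathway, had 3.87, 4.46 and 3.97 CPM in controls and 19.0, 21.8 and 17.9 CPM after depletion (2.25 ± 0.14, edgeR adjusted p = 1.05e-05). Its partner NFKB2 had 45.8, 46.2 and 46.0 CPM in controls and 141.7, 157.2 and 149.5 CPM after depletion (1.70 ± 0.11, edgeR adjusted p = 1.43e-05). The AP-1 gene FOSL1 rose (1.25 ± 0.21, edgeR adjusted p = 0.00242) and FOS fell (-1.33 ± 0.20, 0.0012). NFKBIA, the feedback inhibitor IkB-alpha, went from 65.5, 69.1 and 75.4 to 120.01, 144.4 and 140.3 CPM (0.95 ± 0.13, edgeR adjusted p = 0.000716). RELA, the main activating subunit, had 0.15 ± 0.13 (0.380), with its sign turned by library totals alone and on FPKM. NFKBIA and RELA were named after their values were seen. Higher genes of this list numbered 7 with library totals alone, 7 without control replicate 2 and 6 without control replicate 3.

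**Figure D5:**
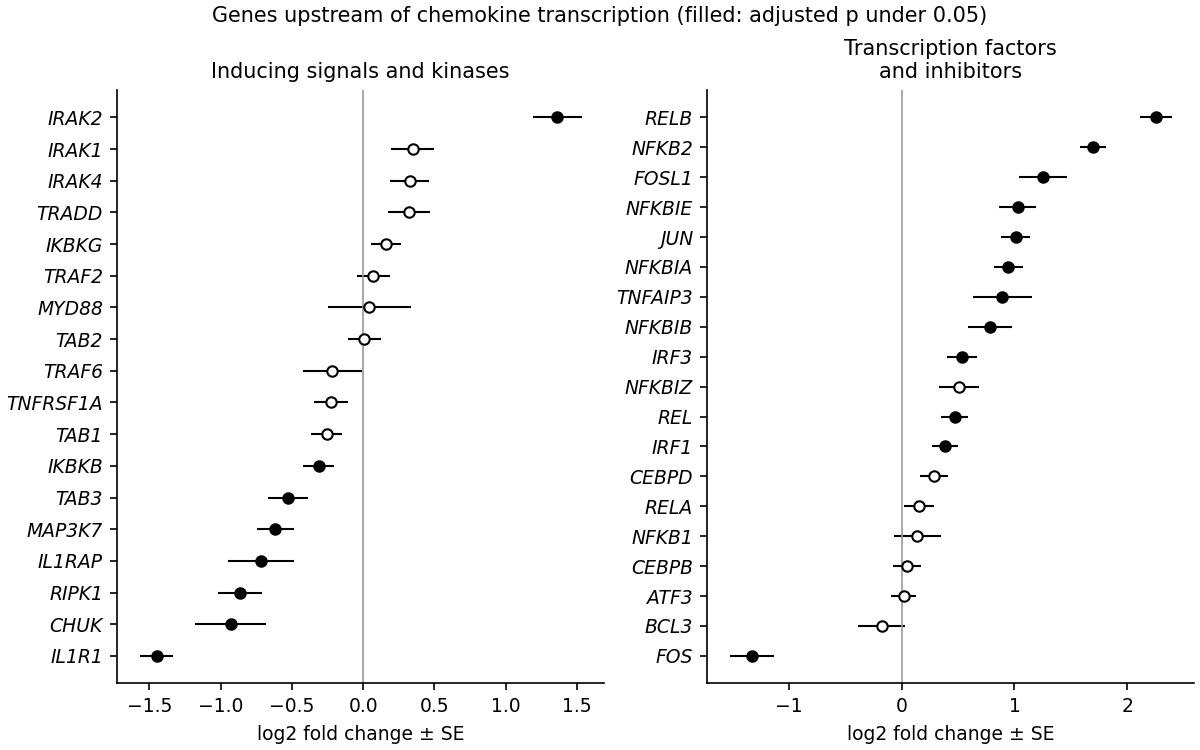
Log2 fold change ± SE of the tested genes for inducing signals and kinases (left) and for transcription factors and inhibitors (right), with filled points for an adjusted p under 0.05. On the left 7 genes are filled below 0 and IRAK2 above it, and on the right 11 are filled above 0 and FOS below it.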

How the data were processed

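Polyadenylated RNA was sequenced, and sample titles gave each library's group and number. The deposited counts are whole reads per gene, not normalized (29122 genes). The authors also deposited FPKM values, normalized for gene length and library size (28878 genes). The tools behind them were TopHat2, bcl2fastq and edgeR and the build GRCh38, per the submitters' processing notes. Versions, counting tool, annotation and strand setting were not stated.

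The edgeR 4.0.16 quasi-likelihood test (R 4.3.3, TMM, group as the only term) was applied to 15907 genes that passed filterByExpr (minimum count 10, minimum total 15). Benjamini-Hochberg adjustment ran over all of them, with a threshold of 0.05. The SE is the log2 fold change divided by the root of F. Alternatives were DESeq2 1.42.0, other scalings and filters, a replicate block, each library left out (an arm of 2 then shares the spread of the other), limma 3.58.1 on log2(FPKM + 1) and log2(FPKM + 0.1), and an offset for exon length and GC content (mgcv 1.9.3, GENCODE release 29, 99.2% of tested genes matched). Fold changes on the FPKM scale understate those of low genes. Scripts were tested on simulated counts. Stretches shared between transcripts and AU-rich counts also come from GENCODE release 29, possibly not the release behind the counts.

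The members and 9 gene lists were chosen with earlier results of these data known. Named genes are the members, BCLAF1, for each list up to 4 called genes of largest change (if none was called, its 2 most abundant), and the 5 genes most like the most abundant member. Other names are said to follow their values. Single results of a few listed genes are not reported here.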

Additional observations from a re-analysis of the deposited data

How the results depend on the processing

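All 8 chemokine genes were recomputed under 18 other settings. CXCL1, CXCL2, CXCL3 and CCL2 stayed higher and past the threshold in each, and CCL5 and CCL20 in the 17 that tested them. CXCL8 lost its call with log2(FPKM + 1) and no filter (0.99, adjusted p = 0.109). CXCL5 turned sign on log2(FPKM + 1) with and without a filter (both -0.0248) and on log2(FPKM + 0.1) (-0.0252), and ranged from 0.149 to 0.415 with each library left out. All tested genes called numbered 1283 higher with library totals alone, 1131 higher and 4453 lower on log2(FPKM + 1), 1126 and 4381 on log2(FPKM + 0.1), and 573 higher with no filter there. With each library left out they ranged from 1383 to 3741 higher and 1549 to 4195 lower. Of 62 tested genes in the 6 lists that are no cell type markers, 17 were higher and 11 lower. Of all tested genes 17.8% were higher and 18% lower, so the lower genes of the lists stood near that share. On log2(FPKM + 1) with no filter 8 of 105 were higher and 7 lower, and 5 to 14 were lower with each library left out. Transcription factors and inhibitors numbered 7 higher and 2 lower on FPKM with the filter and 5 higher without it. Inducing signals and kinases had 3 or 4 lower genes when any 1 control, or BCLAF1-depleted replicate 2 or 3, was left out.

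Signs turned for CXCL16 with library totals alone (-0.137), the length and GC correction (-0.0908, and -0.0945 with the block), log2(FPKM + 1) (-0.166 with and without the filter) and log2(FPKM + 0.1) (-0.201). CCL28 had -0.0208 with library totals alone and -0.00894, -0.00894 and -0.0534 on the FPKM settings. KHSRP had 0.0209 with upper-quartile scaling, 0.00841 with genes of at least 5 CPM, 0.0103 without control replicate 1, and a range of -0.0734 to 0.012 with each library left out. RELA had -0.0878 with library totals alone and -0.14, -0.145 and -0.14 on FPKM. The median of all genes was itself -0.206 with library totals alone, -0.142 on log2(FPKM + 1), -0.253 on log2(FPKM + 0.1) and -0.0142 with no filter on log2(FPKM + 1). The leukocyte marker CD68 had -0.0023 without control replicate 2 and a range of -0.086 to 1.26 with each library left out.

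Deviations of same-numbered libraries from their group means correlated weakly, at 0.036, 0.0466 and 0.119, and each library correlated best with its own number. Pairs of unlike number ranged from -0.0763 to 0.0335. The labels give only the shared number, and the origin of these correlations was not tested. With the replicate number as a block, 2886 genes were higher and 3121 lower, and 7 chemokine genes were higher. At the 4 to 9 counts of most CCL5 and CCL20 control libraries, depth limits the size of the fold.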

Other observations

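Among 18 other secreted cytokine genes, 9 were tested, 5 rose and 2 fell, where 17.8 and 18% of all tested genes did. The lower genes numbered 1 with upper-quartile scaling, on log2(FPKM + 1) with no filter, and without any 1 control or BCLAF1-depleted replicate 2 or 3. IL32, a cytokine of epithelial and lymphoid cells, rose from 1.15, 1.58 and 0.977 to 8.35, 10.9 and 13.3 CPM (log2 fold change 3.13 ± 0.24, edgeR adjusted p = 2.8e-05). CSF1, the growth factor of macrophages, rose from 5.14, 6.31 and 5.24 to 12.0, 11.3 and 13.6 CPM (1.15 ± 0.15, edgeR adjusted p = 0.000569). The stress cytokine gene GDF15 rose by 2.39 ± 0.38 (edgeR adjusted p = 0.0019), and IL11, of the interleukin-6 family, had -2.74 ± 0.16 (7.52e-06). IL6, which is often measured beside CXCL8 in senescent cells, had under 3 counts in every library, as did CSF2, IL7 and TSLP, all named after their values were seen.

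CXCL5, the chemokine gene with the highest FPKM, was most like SERPINE2 (Pearson r = 0.981), RAB10 (0.98), PABPC4 (0.975), MORC2 (0.974) and NAP1L2 (0.97) in log2 CPM over the 6 libraries, of 10167 genes whose mean reached 5 CPM. None of these 5 genes passed the test (log2 fold changes 0.143 to 0.385, edgeR adjusted p 0.12 to 0.337). They were picked for their likeness to CXCL5 in the same libraries, which largely fixed that outcome in advance. The correlations are the highest of 10167 and describe only 6 libraries that fall into the same 2 groups.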
